A study of Mus musculus with 7 samples.

Results

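The genes described here are the replication-dependent histone genes of the mouse, measured in polyadenylated RNA of cultured neural stem cells (NSCs). They were taken as every protein-coding gene whose symbol starts with Hist1h, Hist2h, Hist3h or Hist4h, which gave 67 of the 55335 genes in the count tables. By class they were 6 linker histone H1 genes, 18 H2A genes, 18 H2B genes, 12 H3 genes and 13 H4 genes. By location they were 54 genes of the Hist1 cluster on chromosome 13, 10 of the Hist2 cluster on chromosome 3, 2 of the Hist3 cluster on chromosome 11 and Hist4h4 on chromosome 6.

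The NSCs were of the FVB/N strain, were grown in NeuroCult medium with EGF and bFGF, and came from 4 *Smchd1* wild-type (WT) samples and 3 samples with the Smchd1MommeD1 allele (*Smchd1*-null). *Smchd1* encodes a chromatin protein that represses genes on the inactive X chromosome and at some autosomal loci. Poly(A) RNA was sequenced on nanopore flow cells as unamplified cDNA, prepared with kit DCS108 in batch 1 (WT replicate 2, *Smchd1*-null replicates 1 and 2) and kit DCS109 in batch 2 (WT replicates 3 and 4, *Smchd1*-null replicate 3), while WT replicate 1 was run in both batches and its counts were summed. The animals' age, and whether the samples were separate cultures or animals, are not given in the sources used here, so p-values measure the spread between these samples, which may be technical.

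Replication-dependent histone genes supply most of the histones that package new DNA in S phase. Their mRNAs are the known exception among animal mRNAs, because the main transcripts end a short way after a conserved stem-loop that is bound by the protein SLBP and carry no poly(A) tail. Several of these genes also make a longer transcript that runs past the stem-loop to an ordinary poly(A) signal, and such transcripts are known from cells that leave the cell cycle. A library made from poly(A) RNA selects for these longer transcripts.

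The stem-loop sites are shown because they are the feature by which these mRNAs are otherwise made. A search of the annotated transcripts (Gencode M21, GRCm38) after the stop codon on the transcript strand, for GG, any 3 bases, TTTT, any 1 base, A, any 3 bases and CC found a match in 44 of the 67 genes. Its first base lay between 22 and 59 bases after the stop codon, with a median of 32. Each line below gives a site from 5′ to 3′ with the matched letters in capitals and 5 flanking bases on each side. The first 6 lines are genes of all classes described below, and the last 2 carry other versions of the stem.
Hist1h1c: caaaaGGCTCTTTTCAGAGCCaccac
Hist3h2a: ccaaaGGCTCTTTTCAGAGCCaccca
Hist3h2ba: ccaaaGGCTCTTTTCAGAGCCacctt
Hist2h3c2: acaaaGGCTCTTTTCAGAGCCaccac
Hist1h4i: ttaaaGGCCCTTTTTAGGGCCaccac
Hist4h4: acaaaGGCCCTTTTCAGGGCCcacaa
Hist1h3c: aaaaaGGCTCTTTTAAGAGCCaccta
Hist1h4j: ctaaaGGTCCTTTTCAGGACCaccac

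Only 6 distinct stem-loop sequences occurred among the 44 genes. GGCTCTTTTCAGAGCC was found in 26 genes of the H1, H2A, H2B and H3 classes, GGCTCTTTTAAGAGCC in 6 genes of H1, H2B and H3, and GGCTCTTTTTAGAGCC in the H2A gene Hist2h2ac. The 11 H4 genes with a match carried 3 other sequences, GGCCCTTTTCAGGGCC in 7 genes, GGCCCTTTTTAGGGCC in 2 genes and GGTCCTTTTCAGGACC in 2 genes, and none of these was found outside H4. Of the genes with at least 100 annotated bases after the stop codon, 25 of 31 histone genes (80.6%) held the letters within those bases, against 13 of 19903 other protein-coding genes (0.0653%). The annotated ends of 15 histone genes lay under 30 bases from the stop codon, so that their annotated sequence could hold no complete site at the usual place. Hist1h2bc and Hist2h2be, both H2B genes with long annotated ends, had no match in their annotated sequence. A match or its absence describes these letters only.

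Counts of the histone genes were few. The libraries held 2.74 to 7.74 M (mega) counts, and the 67 genes together took 3649 of 33311549 counts (0.0110%), or between 0.00821% and 0.0189% of a library. At least 1 count was seen for 48 genes, counts in all 7 samples for 13 genes, and no count in any sample for 19 genes. A gene at 0 in all 7 libraries could hold up to 0.0901 counts per M, the rate of 3 counts in the pooled libraries, which covers counting error only. The number of genes with a count was 34, 29, 31 and 35 in WT replicates 1 to 4 and 25, 35 and 33 in *Smchd1*-null replicates 1 to 3. In a draw of the smallest library size from every library, 31.1, 23.6, 26.0 and 27.0 genes were expected in WT and 25.0, 25.0 and 26.8 in *Smchd1*-null. At equal depth the groups overlapped, and WT replicate 1 had the most genes.

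Whether a histone gene had any count went with its neighbours in the annotation. An exon of 24 genes overlapped an exon of another annotated gene on either strand, and 17 of these 24 were at 0 in all samples. Among the 43 genes with no such overlap, only Hist1h2bb and Hist1h2bl were at 0. Most of the overlapping genes were of H2A, where all 18 genes overlapped another gene and 13 were at 0. In 17 of the 18 H2A genes a partner was a short antisense gene of 129 to 144 bases annotated as a miRNA. None of these 17 miRNA-type partners had a count, but some of these H2A genes had further partners. Hist2h2aa1 and Hist2h2aa2, both at 0, also overlapped the longer antisense genes Gm20633 (27 counts) and Gm20632 (32 counts). The remaining H2A gene, Hist2h2ab, overlapped another antisense gene and was also at 0. How reads over 2 annotated genes were counted, and whether strand was used, is not given in the sources used here, and the part of overlap in these zeros was not tested. A 0 for an overlapping gene therefore cannot be read as absence of its RNA, and the low H2A total below holds the same limit.

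**Figure D1:**
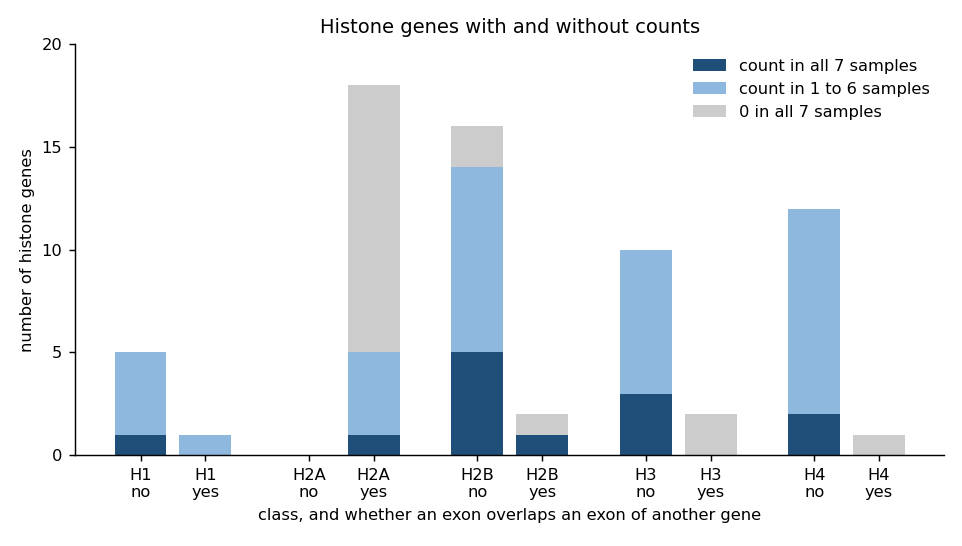
Number of histone genes (vertical axis) by class and by whether an exon overlaps an exon of another gene, split by whether counts were seen in all 7 samples, in 1 to 6 samples or in none. All 18 H2A genes overlap another gene and 13 are at 0 in all samples, while of the 43 genes without overlap 2 are at 0.

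Copies within a class also share sequence. For the median histone gene, 55.2% of the 31-base words of its annotated transcripts also occurred in another histone gene, and 38 genes shared over 50%. The class medians were 74.9% for H2A, 61.0% for H3, 52.6% for H2B, 47.9% for H4 and 3.04% for H1. Reads of such copies can be assigned to a wrong member, so values of single low genes are uncertain. The 6 genes of highest level shared less, with 31.7% in Hist1h2bc, 11.4% in Hist1h1c, 8.05% in Hist3h2ba, 33.6% in Hist1h4i, 3.31% in Hist3h2a and 1.93% in Hist2h2be. Hist2h2aa2 shared all of its words with other histone genes, and Hist1h2bq shared 98.3%.

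Nearly all counts fell on genes whose annotated transcript runs well past the stop codon. The poly(A) signal letters AATAAA or ATTAAA occurred after the stop codon in 22 histone genes, which held 93.9% of the histone counts (3428 counts), against 6.06% (221 counts) for the 45 genes without either. Of the 22 genes, 21 had a count, and of the 45 genes, 27 did. Among the 43 genes with no overlapping neighbour, the 17 genes with the signal letters held 86.6% of all histone counts and the 26 genes without them held 5.87%. The 27 genes with over 150 annotated bases after the stop codon held 95.2% of the counts, and the 40 genes with at most 150 held 4.80%. Among these 40 genes, 15 were annotated to under 30 bases after the stop codon and held 0.932% of the counts. They counted as genes without the signal letters, although sequence past the annotated ends was not searched. A longer window holds a 6-letter match more often, so length and signal letters cannot be told apart here. The 44 genes with a stem-loop match held 63.1% of the counts, and the 27 genes with a match and no signal letters held 4.33%. Of the 23 genes without a match, only 8 had 30 or more annotated bases after the stop codon. Hist1h1c gave 1054 of the 2301 counts with a match, and Hist1h2bc gave 1095 of the 1348 without. This split rests largely on 2 genes and on missing annotation, so it cannot show whether the stem-loop letters go with the counts.

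**Figure D2:**
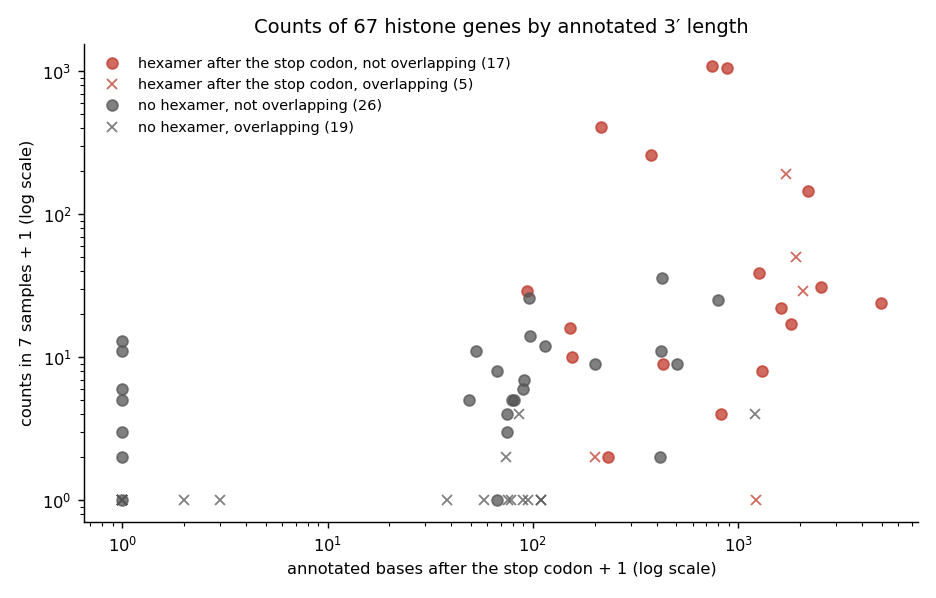
Counts summed over 7 samples plus 1 (vertical axis, log scale) against annotated bases after the stop codon plus 1 (horizontal axis, log scale) for 67 histone genes, coloured by the signal letters AATAAA or ATTAAA and marked by overlap with another gene. The 8 genes with the most counts carry the letters, although the 17 genes with the letters and no overlap run from 1 to 1095 counts, and the 40 genes with at most 150 annotated bases after the stop codon have at most 28.

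A few genes made up most of the signal. Levels are given in counts per M of the TMM-scaled library (CPM), in which 1 count is worth between 0.133 and 0.375 CPM. The 12 genes of highest mean CPM held 92.0% of the histone counts, and Hist1h2bc and Hist1h1c alone held 58.9%. Per kb of gene length, Hist1h2bc (27.7 CPM per kb), Hist1h1c (20.3) and Hist3h2ba (18.6) were the highest, followed by Hist1h4i (11.1) and Hist3h2a (2.57). These per-length levels vary between samples for the leading 3 genes, so that their order is not fixed. Hist3h2ba had 57.0 CPM per kb in WT replicate 4 and 3.18 in WT replicate 1. The study states that long-read counts should in theory be free of gene length bias, so division by length can lower long genes. Hist1h2be, of 4446 bases, ranked 7 by mean CPM and 28 per kb.

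Hist1h2bc (ENSMUSG00000018102.5, chr13:23684199-23692908, plus strand), an H2B gene with 2 annotated exons, had the most counts (1095). Its level was 24.7, 27.3, 34.35 and 65.7 CPM in WT replicates 1 to 4 and 19.5, 21.8 and 30.5 CPM in *Smchd1*-null replicates 1 to 3. WT replicate 4 was the highest, *Smchd1*-null replicates 1 and 2 were the lowest, and the groups overlapped. Hist1h1c (ENSMUSG00000036181.2, chr13:23738808-23740367, plus strand), which encodes linker histone H1.2, had 1054 counts. Its level was 22.5, 25.3, 33.6 and 45.4 CPM in WT and 28.5, 24.5 and 42.2 CPM in *Smchd1*-null. In both genes the 3 samples of batch 2 were the highest, and the groups overlapped.

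Hist3h2ba (ENSMUSG00000056895.4, chr11:58948920-58949533, plus strand), an H2B gene, was the least even of the abundant genes. Its level was 1.95, 3.55, 6.82 and 35.0 CPM in WT and 12.4, 9.58 and 10.6 CPM in *Smchd1*-null, and WT replicate 4 alone gave 204 of its 408 counts. The *Smchd1*-null samples lay close together, above 3 WT replicates and below WT replicate 4. Its neighbour Hist3h2a (ENSMUSG00000078851.4, chr11:58954685-58956830, plus strand), the most abundant H2A gene, had 1.46, 6.44, 4.98 and 8.23 CPM in WT and 5.63, 6.65 and 5.20 CPM in *Smchd1*-null. WT replicate 1 was low for both genes of the Hist3 cluster. Hist3h2a overlaps *Trim17* on its own strand and an antisense miRNA-type gene, so its counts carry the limit given above.

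Hist1h4i (ENSMUSG00000060639.5, chr13:22040636-22041362, minus strand) was the most abundant H4 gene. Its level was 7.33, 9.11, 6.82 and 9.77 CPM in WT and 9.38, 4.92 and 9.31 CPM in *Smchd1*-null, with the groups overlapping and *Smchd1*-null replicate 2 lowest. Hist2h2be (ENSMUSG00000068854.7, chr3:96221119-96223738, plus strand), an H2B gene, had 4.64, 4.00, 3.15 and 8.06 CPM in WT and 3.00, 3.59 and 2.81 CPM in *Smchd1*-null. WT replicate 4 was again the highest, and the other 6 samples lay close together.

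The other 6 genes of the leading 12 stood at or near the level of a few counts. Hist1h2be (H2B) had 11, 12, 4 and 7 counts in WT and 1, 12 and 2 in *Smchd1*-null, and it overlaps Hist1h1e on the same strand. Hist1h2bh (H2B) had 6, 3, 9 and 5 counts in WT and 3, 9 and 3 in *Smchd1*-null, so that neither group stood out. Hist2h3c2 (chr3:96238108-96239127, minus strand), the H3 gene of highest mean CPM, had 1, 8, 2 and 10 counts in WT and 3, 7 and 4 in *Smchd1*-null, with the WT samples on both sides of the *Smchd1*-null range. Hist4h4 (chr6:136801553-136804415, minus strand), an H4 gene far from the large clusters, had 24, 2, 0 and 1 counts in WT and 0, 1 and 2 in *Smchd1*-null. WT replicate 1 thus held 80.0% of the counts of Hist4h4, and every other sample was at or below 2. Hist1h4h (H4) had 2, 3, 3 and 6 counts in WT and 3, 5 and 6 in *Smchd1*-null, and Hist1h2ac (H2A) had 3, 1, 3 and 15 in WT and 2, 4 and 0 in *Smchd1*-null.

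**Figure D3:**
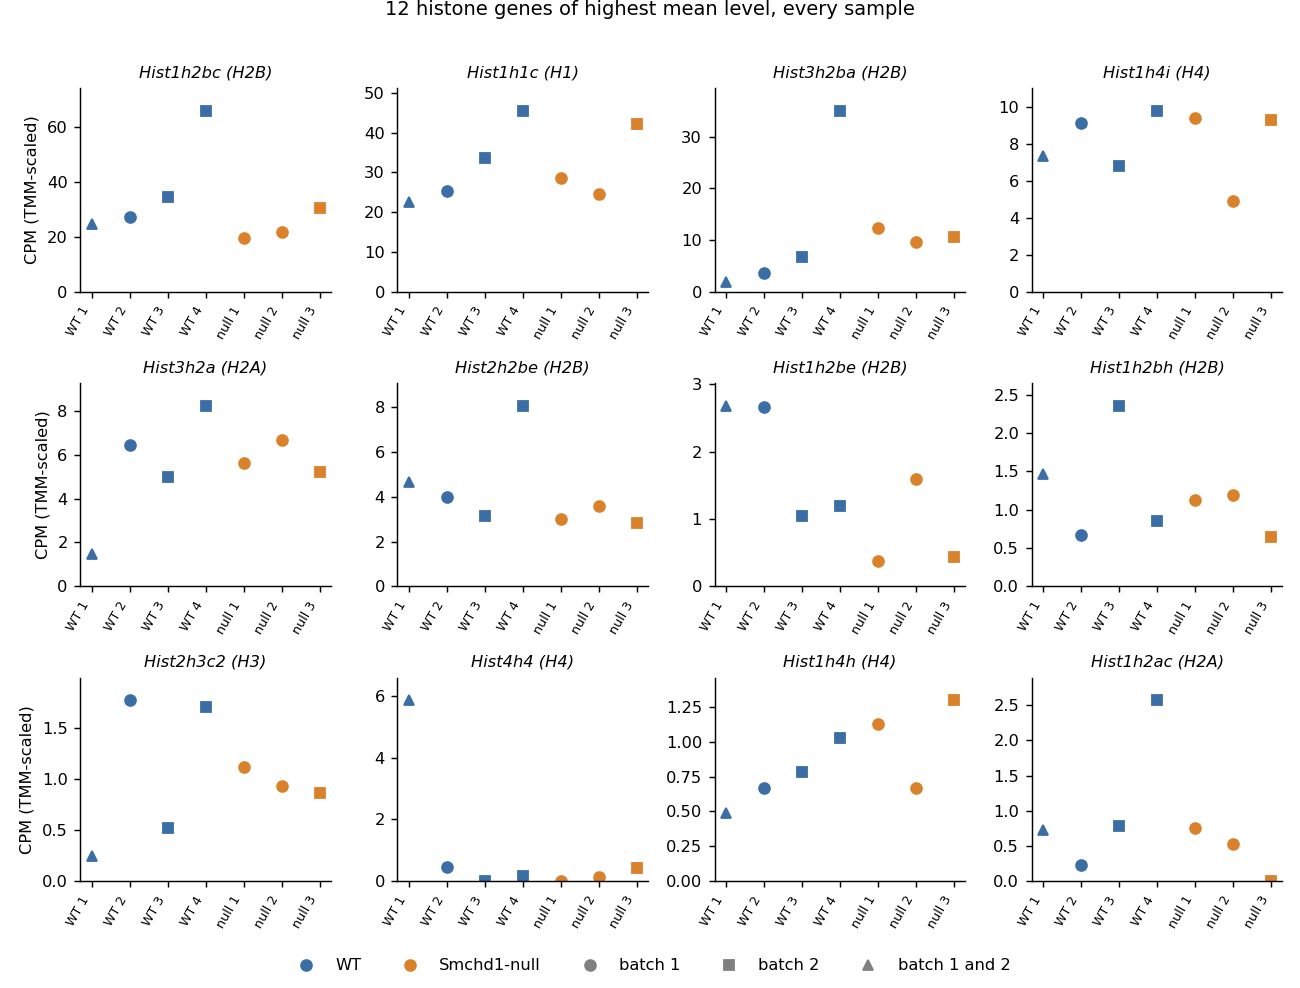
CPM (vertical axis, linear from 0, scaled per gene) of the 12 histone genes of highest mean level in each of the 7 samples, coloured by genotype and marked by batch. WT replicate 4 is the highest sample for the 6 most abundant genes, and Hist4h4 is seen almost wholly in WT replicate 1.

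WT replicate 4 had the highest CPM of the 7 samples in all 6 of the genes that passed the filter for testing, while it was the highest sample in 22.9% of the 13305 genes tested. It was also highest in 6 of the other 42 histone genes with a count. This sample stood apart in other genes as well. Mbp, a myelin gene of oligodendrocytes, was at 96.2 CPM in WT replicate 4 and between 0.262 and 4.44 CPM in the other samples. Other oligodendrocyte markers differed in this respect. Sox10 and Mag were also highest in WT replicate 4. Olig1 was not, at 92.1 CPM there against 85.3 to 102 CPM elsewhere, nor was Mog, at 0.857 CPM against 1.13 CPM in *Smchd1*-null replicate 1.

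The astrocyte markers were Gfap, Aqp4, Aldh1l1, S100b and Gjb6 (5 of 5 with a count). They summed to 114 CPM in WT replicate 4 and to 28.6 to 37.9 CPM elsewhere. S100b made up most of this sum in WT replicate 4, at 64.99 CPM against 2.252 to 11.55 CPM elsewhere. Aldh1l1 (34.81 against 21.54 to 29.15 CPM), Aqp4 (7.202 against 0.9316 to 2.598 CPM) and Gfap were also highest there, but by less. Gjb6 had only 6 counts in all and was at 0 in every sample but WT replicate 4. The neural stem cell markers, such as Nes, Sox2 and Fabp7 (7 of 7 with a count), summed to 13360 CPM in WT replicate 4 and to 8238 to 10430 CPM in the others, and each of the 7 had counts in all samples. Fabp7 made up most of this sum in WT replicate 4, at 9464 CPM against 4511 to 6774 CPM elsewhere. Sox2 (431 against 289 to 338 CPM) and Slc1a3 (1009 against 460 to 628 CPM) were also highest there. Msi1 and Prom1 were neither highest nor lowest in WT replicate 4. The stem cell markers Nes and Vim were lowest in that sample, at 211 against 231 to 409 CPM and at 2186 against 2198 to 2554 CPM. S phase genes summed to 1334 CPM in WT replicate 4 against 2086 to 2416 CPM in the others, and G2 and M phase genes to 1569 CPM against 2052 to 2232 CPM. The sample with the most polyadenylated histone RNA was therefore the one with the lowest sums of S phase and of G2 and M phase genes and with the highest Mbp level and sum of astrocyte markers. The part of these differences in the histone values was not tested, and in bulk RNA fewer cells of a type and less RNA per cell cannot be told apart. The sums for markers of neurons, of microglia, and of fibroblasts and endothelium were also highest in WT replicate 4 but by less. These lists had 6 of 6, 5 of 6 (Tmem119 at 0) and 6 of 6 genes with a count. Their sums were 394, 2.23 and 5.49 CPM against 340 to 381, 0.433 to 2.00 and 0.222 to 4.15 CPM in the others. Single genes were mixed. Dcx (36.18 CPM against 3.003 to 11.97 CPM) and Snap25 were highest there, while Map2, Stmn2, Rbfox3 and Syn1 were highest in other samples. P2ry12 and Csf1r were highest there, and Ptprc, Cx3cr1 and Aif1 elsewhere. Col1a1, Pecam1 and Pdgfrb were highest there, and Col3a1, Dcn and Cldn5 elsewhere.

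Summed over all 67 genes, the histone level was 87.2, 88.4, 102 and 189 CPM in WT replicates 1 to 4 and 91.6, 84.5 and 113 CPM in *Smchd1*-null replicates 1 to 3. The means were 117 CPM ± 48.8 (SD, n = 4) in WT and 96.4 CPM ± 14.8 (SD, n = 3) in *Smchd1*-null, a ratio of 0.825. The groups overlapped, and the WT spread came from WT replicate 4. Without it the WT mean was 92.6 CPM ± 8.37 (SD, n = 3) and the ratio was 1.04. Hist3h2ba gave 18.5% of the histone counts in WT replicate 4, and the sum without this gene was still highest there (154 CPM, against 74.9 to 102 CPM in the other samples). Sums over the genes are given as a description, without a test.

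By class, H2B held 49.8% of the histone counts, H1 29.8%, H4 10.4%, H2A 6.14% and H3 3.84%. H1 rested on Hist1h1c, since the other 5 H1 genes together had 35 counts. H2B summed to 38.8, 40.0, 51.4 and 114 CPM in WT and 38.3, 39.3 and 47.8 CPM in *Smchd1*-null. H1 summed to 25.4, 25.3, 34.1 and 46.3 CPM in WT and 28.9, 26.1 and 42.9 CPM in *Smchd1*-null. In H2B, WT replicate 4 stood far above the other samples, and in H1 it stood beside *Smchd1*-null replicate 3, the other high sample of batch 2.

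The remaining classes were low. H4 summed to 16.4, 12.2, 8.91 and 13.4 CPM in WT and 12.01, 7.19 and 13.0 CPM in *Smchd1*-null, and H2A to 2.20, 6.66, 6.03 and 11.3 CPM in WT and 6.38, 7.32 and 5.20 CPM in *Smchd1*-null. H3 summed to 4.40, 4.22, 1.84 and 4.46 CPM in WT and 6.01, 4.66 and 4.11 CPM in *Smchd1*-null. WT replicate 3 was the lowest WT sample in H3 and H4, and the groups overlapped in every class. The ratio of group means, *Smchd1*-null over WT, was 0.995 for H1, 0.961 for H2A, 0.685 for H2B, 1.32 for H3 and 0.844 for H4. Without WT replicate 4 these ratios were 1.15, 1.27, 0.963, 1.41 and 0.859, so that the direction of H1 and H2A turned with that sample. In H4 the high value of WT replicate 1 went with Hist4h4, and without that gene the ratio was 0.950.

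**Figure D4:**
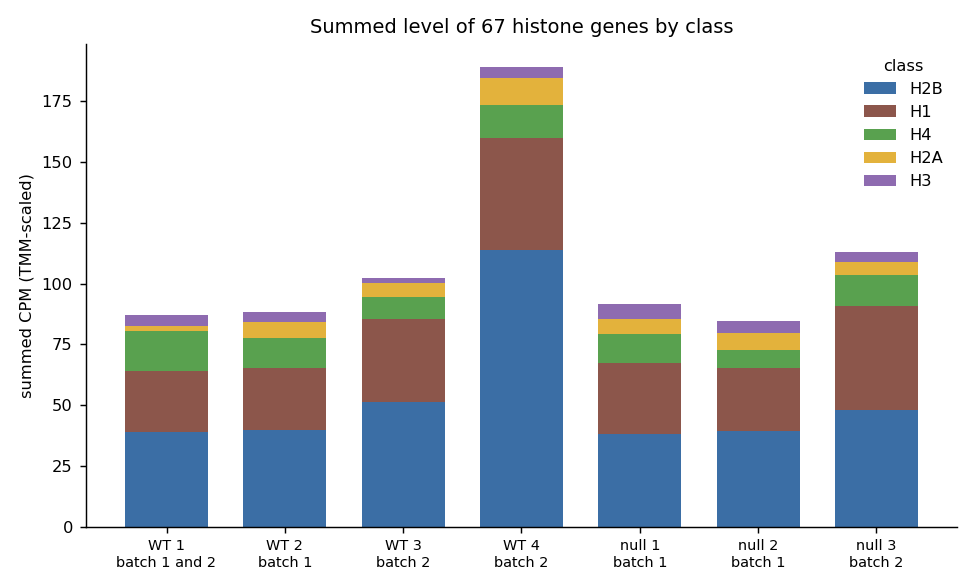
Summed CPM (vertical axis) of the histone genes in each sample, stacked by class, with the batch below each sample. WT replicate 4 reaches 189 CPM, mainly through H2B (114 CPM), and the other samples lie between 84.5 and 113 CPM.

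The comparison of *Smchd1*-null with WT asks which genes respond to the loss of *Smchd1*. *Smchd1* itself was at 55.7 to 74.7 CPM in WT and at 12.8 to 18.4 CPM in *Smchd1*-null samples, which is -2.15 ± 0.18 (SE) on the log2 scale (adjusted p = 0.00011 by limma's voomWithQualityWeights over 13305 genes). Of the 67 histone genes, 6 passed the filter on low counts and 61 did not, of which 42 had a count. None of the 6 was called at an adjusted p of 0.05, where 0.0902% of all tested genes were called, nor at 0.25, where 1.08% were called. With 6 genes tested, a count of 0 is near the background and says little about the family. At an unadjusted p of 0.05, limma called 1 of the 6 genes, DESeq2 called 1 and edgeR's quasi-likelihood test called 0, while over all tested genes the shares were 13.9%, 4.46% and 5.07%. The median log2 fold change of the 6 genes was -0.17, against 0.00 (0.0049) over all tested genes.

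Hist1h2bc had the smallest p of the family, at -0.56 ± 0.24 (SE) on the log2 scale (adjusted p = 0.333 by limma). Leaving out WT replicate 2 or *Smchd1*-null replicate 3 took its adjusted p to 0.176 and 0.137, below 0.25, in fits where 21.9% and 22.8% of all tested genes were called at 0.25. Hist3h2ba had the largest estimate, 0.92 ± 0.50 (SE, adjusted p = 0.409 by limma), although its mean CPM was lower in *Smchd1*-null (10.9 ± 1.42, SD, n = 3) than in WT (11.8 ± 15.6, SD, n = 4). The estimate was 0.54 by limma without sample weights and -0.19 and -0.13 under edgeR and DESeq2. Without WT replicate 4, which had the lowest weight of the samples (0.447), it was 1.46 (adjusted p = 0.316 by limma), and without WT replicate 1 it was 0.29. Within batches the difference in log-CPM between *Smchd1*-null and WT was 1.51 in batch 1 and -0.54 in batch 2.

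The other estimates were 0.60 for Hist3h2a (adjusted p = 0.506), -0.39 for Hist2h2be (adjusted p = 0.604), -0.27 for Hist1h4i (adjusted p = 0.687) and -0.08 for Hist1h1c (adjusted p = 0.885), all by limma. No tested histone gene had groups that did not overlap in CPM, while 5.53% of the tested genes did. Among all 48 histone genes with a count, the H3 gene Hist1h3g was the only one without overlap, where 3.60% of all genes with a count had none. It had 3, 0, 1 and 4 counts in WT and 5, 8 and 4 counts in *Smchd1*-null, or 0 to 0.733 CPM against 0.866 to 1.88 CPM. It did not pass the filter and was singled out after its values were seen.

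The comparison of batch 2 with batch 1 was made in the 6 samples sequenced in a single batch. The batches differed in library kit and flow cell, but they also held different samples, with WT replicate 4 in batch 2. Effects of kit, flow cell and sample therefore cannot be told apart here. Of the 6 tested histone genes, 1 was higher in batch 2 at an adjusted p of 0.05 by limma, where 11.0% of all tested genes were called and 5.36% were higher. At 0.25, 2 were higher and none was lower, where 37.1% were called and 19.3% were higher. A share of 1 or 2 in 6 is near this background. The median log2 fold change was 0.39 for the 6 genes and 0.02 over all tested genes.

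Hist1h1c rose in batch 2 by 0.66 ± 0.15 (SE) on the log2 scale (adjusted p = 0.0182 by limma). Its level was 25.3, 28.5 and 24.5 CPM in the 3 samples of batch 1 and 33.6, 45.4 and 42.2 CPM in those of batch 2, without overlap. The difference was 0.62 log-CPM in WT and 0.67 in *Smchd1*-null samples. Hist1h2bc was higher by 0.62 ± 0.19 (SE, adjusted p = 0.0568 by limma), with 27.3, 19.5 and 21.8 CPM in batch 1 and 34.35, 65.7 and 30.5 CPM in batch 2, again without overlap. Such a separation, batch 2 above batch 1, was seen in 15.3% of all tested genes. The call of Hist1h1c at 0.05 was lost without WT replicate 2 or *Smchd1*-null replicate 1, 2 or 3. The adjusted p by limma was 0.287, 0.0535, 0.0710 and 0.475, where 0.00752%, 3.01%, 4.96% and 0.00752% of all tested genes were called. With edgeR (adjusted p = 0.0717) and DESeq2 (adjusted p = 0.0772) the call was also lost, where 1.78% and 3.63% were called. The estimate of Hist1h1c lay between 0.59 and 0.74 with single samples left out. Hist1h2bc was not called at 0.25 without WT replicate 2 or *Smchd1*-null replicate 3, where 2.37% and 0.0977% of all tested genes were called.

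The other 4 tested genes did not differ between batches beyond their error. Their log2 fold changes by limma were 0.52 for Hist3h2ba (adjusted p = 0.434), 0.26 for Hist1h4i (adjusted p = 0.628), -0.17 for Hist3h2a (adjusted p = 0.736) and -0.04 for Hist2h2be (adjusted p = 0.961). In summed CPM, batch 2 was 1.65 times batch 1 in WT and 1.28 times in *Smchd1*-null, and with WT replicate 3 alone for batch 2 the WT ratio was 1.16. H1 was 1.59 and 1.56, H3 0.746 and 0.771, H2A 1.30 and 0.758, H2B 2.07 and 1.23, and H4 0.912 and 1.35 times batch 1 in WT and *Smchd1*-null. The WT ratios depended on the batch 2 sample taken, with 1.35 for H1, 0.905 for H2A, 1.29 for H2B, 0.435 for H3 and 0.730 for H4 in WT replicate 3 alone, and 1.83, 1.70, 2.84, 1.06 and 1.10 in WT replicate 4 alone. H1 and H2B were thus above 1 in each, and H2A, H3 and H4 lay on both sides.

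**Figure D5:**
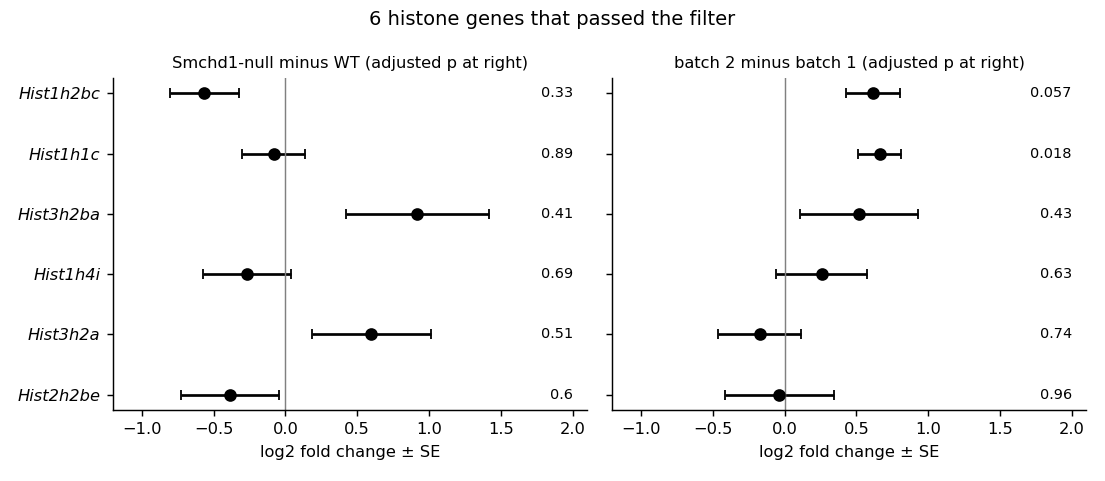
Log2 fold change (horizontal axis, point and SE) of the 6 tested histone genes for Smchd1-null minus WT (left) and batch 2 minus batch 1 (right), with limma's adjusted p at the right of each row. No gene reaches an adjusted p of 0.25 for genotype, and Hist1h1c (0.018) and Hist1h2bc (0.057) are the lowest for batch.

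Other genes of histone supply and the cell cycle had far more counts. The 11 genes listed as replication-independent histones all had counts and summed to 3013 to 3758 CPM in WT and 3399 to 3488 CPM in *Smchd1*-null. Per kb, the replacement H3.3 gene H3f3b stood at 297 CPM against 1.48 for Hist1h3g, the replication-dependent H3 gene of highest level per kb, and 1.01 for Hist2h3c2. The variant H2A.Z gene H2afz stood at 445 CPM per kb against 2.57 for Hist3h2a. Without division by length, mean CPM in WT and *Smchd1*-null was 890 and 873 for H3f3b, against 1.065 and 0.9745 for Hist2h3c2. It was 750 and 844 for H2afz, against 5.28 and 5.83 for Hist3h2a. Small RNAs that carry no poly(A) tail, such as Rn7sk, summed to 1.78 to 5.26 CPM. Of their 8 gene records, 4 had a count (Rn7sk, Rny1, Rny3 and Vaultrc5), while Terc, Rpph1 and both records of Rmrp were at 0 in all samples.

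For the genotype comparison, 76 genes of 5 lists were tested, namely replication-independent histones (11), histone mRNA transcription and 3′ end factors (16), histone chaperones (14), S phase genes (21) and G2 and M phase genes (14). None was called at 0.05 or 0.25 by limma, edgeR or DESeq2, and 5, 1 and 1 had an unadjusted p under 0.05 by limma, edgeR and DESeq2, where all tested genes gave 13.9%, 5.07% and 4.46%. The median log2 fold changes of the lists were 0.07, -0.03, 0.04, 0.20 and 0.04. Slbp, whose protein binds the stem-loop, had 44.5 CPM ± 5.35 (SD, n = 4) in WT and 55.0 CPM ± 2.43 (SD, n = 3) in *Smchd1*-null (log2 fold change 0.27, adjusted p = 0.382 by limma). Npat, a coactivator of histone gene transcription, had 25.4 CPM ± 3.55 (SD, n = 4) and 25.2 CPM ± 3.75 (SD, n = 3) (log2 fold change -0.12, adjusted p = 0.762 by limma). The values for H3f3b were -0.08 (adjusted p = 0.769 by limma) and for H2afz 0.16 (adjusted p = 0.582 by limma).

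Between batches, genes of the same lists moved both ways. At 0.25, 3 of the 11 replication-independent histone genes were higher in batch 2 and 3 lower, 5 and 5 of the 16 transcription and 3′ end factors, 2 and 2 of the 14 chaperones, 2 and 5 of the 21 S phase genes, and 2 and 3 of the 14 G2 and M phase genes. These were 32 of 76 genes, near the background of 37.1%. By limma's log2 fold change, H2afy (0.55) and H3f3b (0.26) were higher and H1f0 (-0.53), Cenpa (-0.40) and H1fx (-0.48) lower among the histones, while H2afz was at -0.10 (adjusted p = 0.554). Among the 3′ end factors and their partners, Upf1 (2.04), Eri1 (0.44) and Cstf2 (0.49) were higher and Srrt (-0.60) and Ncbp1 (-0.34) lower. Rbbp7 (0.42) and Hat1 (0.28) were higher and Anp32b (-0.52) and Nasp (-0.30) lower among the chaperones. In the cell cycle lists Mcm4 (0.54), Ccne2 (0.77), Mki67 (0.48) and Top2a (0.24) were higher, and Pcna (-0.32), Lig1 (-0.31), Mcm5 (-0.34), Aurkb (-0.55), Ccnb2 (-0.41) and Birc5 (-0.31) lower. Of the marker genes, Fabp7 (0.49), Slc1a3 (0.34) and Gfap (1.82) were higher and Nes (-0.66) was lower. Of the 28 estimates named here as past 0.25, none changed sign but 18 moved by over 1.5 times when a single sample was left out, 16 without *Smchd1*-null replicate 3, 10 without WT replicate 3 and 3 without WT replicate 2. Gfap, with 79 counts in all, was 0.086 without *Smchd1*-null replicate 3 and 3.56 without WT replicate 2.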

How the data were processed

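Gene counts were deposited as 1 table per sample; the counts are whole numbers, not normalized, and the length column was used only for levels per kb. Per the study's methods, the authors base-called with Guppy, aligned reads to mm10 with minimap2 2.17, assigned primary alignments to Gencode M23 genes (GRCm38) by featureCounts in its long-read mode, and added up runs of the same sample. Symbols, exons and transcript sequences came from Gencode M21: 54587 of 55335 identifiers matched with their version and 55154 without it. Of 70 histone symbols, 3 were not protein coding.

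Genes were filtered with filterByExpr (13305 kept) and scaled by TMM. The main test was limma's voomWithQualityWeights, two-sided, with Benjamini-Hochberg adjustment over all 13305 genes: genotype alone on 7 samples, as the study did, and genotype plus batch on the 6 samples of a single batch. Thresholds were 0.05 and 0.25, and log-CPM used a prior count of 2. The scripts were tested on simulated data. Software was R 4.3.3, limma 3.58.1, edgeR 4.0.16, DESeq2 1.42.0, Python 3.11.15 and SciPy 1.17.1. Libraries held 2.74 to 7.74 M counts, so that 3 counts equal 0.399 to 1.13 CPM.

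Sample values are given for the 12 histone genes of highest mean CPM, for histone genes with an adjusted p under 0.25 and for the highest gene of each class. From other lists (replication-independent histones, transcription and 3′ end factors, chaperones, S phase, G2 and M phase, RNAs without a poly(A) tail, and markers of NSCs, neurons, astrocytes, microglia, and fibroblasts with endothelium), genes with an adjusted p under 0.25 were named, up to 5 per list, with *Slbp*, *Npat*, *H3f3b* and *H2afz* always. The sum of a further marker list is not reported here. The genes, lists and rules were chosen with earlier results of these data known. Alternatives were edgeR, DESeq2, no sample weights, other scalings and filters, removal of the gene length trend, batch terms, a replicate block and leaving out each sample.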

Additional observations from a re-analysis of the deposited data

Results flagged for a closer look

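Of 18 sets of 4 WT values compared (the summed level of all histone genes, the 5 class sums and the 12 leading genes, on a log2 scale), 1 held a sample far from the other 3. The H3 sum of WT replicate 3 was 0.876 as log2 CPM, where the other WT replicates lay between 2.08 and 2.16. It rested on few counts, 7 in WT replicate 3 against 18, 19 and 26 in WT replicates 1, 2 and 4. The gap to the nearest sample was 0.938 of the whole range, above the 95% critical value of Dixon's test for 4 samples. Chance alone marks about 1 in 20 such sets. The high values of WT replicate 4 (gap 0.794 of the range for the summed level) and the Hist4h4 value of WT replicate 1 (gap 0.733) were below that critical value.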

How the results depend on the processing

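Depth limits these results, since 61 of the 67 genes could not be tested, 3 counts equal up to 1.13 CPM, and shared or overlapping sequence leaves the level of low genes uncertain.

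For genotype, no histone gene was called at 0.05 under any of the 19 alternatives, where 0.00543% to 1.24% of all tested genes were called. At 0.25, 1 gene was called with the replicate block (Hist3h2ba, 1.27, adjusted p = 0.19 by limma), where 0.977% of all tested genes were called. With the block and the gene length trend removed, 1 was called (Hist3h2ba, 1.20, adjusted p = 0.163 by limma), against 1.08% of all tested genes. When single samples were left out, 0 to 1 was called, against 0.0150% to 22.8% of all tested genes. Deviations of same-numbered samples correlated at -0.0378, 0.363 and 0.094 over genes, and those of differently numbered samples at -0.537 to 0.301. The pair at 0.363 (replicates 2) also shared batch 1, so these values cannot settle whether the replicate numbers pair the samples. For batch, the number of genes called at 0.05 (1 as reported) was 0 with edgeR, DESeq2 and voom without weights, where 1.78%, 3.63% and 1.56% of all tested genes were called. It was 2 with at least 10 counts in every sample (13.7% of all tested genes) and 2 with the length trend removed (7.91%). With samples left out it was 0 to 2, against 0.00752% to 10.2% of all tested genes. At 0.25 it was 0 to 3 over the alternatives, where 0.0977% to 41.3% of all tested genes were called. A replicate block could not be fitted with batch. The cause was not tested.

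Some estimates that were not past a threshold as reported changed sign. For genotype, Hist1h1c was 0.17 with the batch share as covariate, 0.10 with batch on 6 samples, 0.16 with the block and 0.12 with the block and length, and lay between -0.26 and 0.26 with samples left out. Npat was 0.083, 0.14, 0.027 and 0.060 in the same 4 fits (-0.21 to 0.10 with samples left out), and H3f3b was 0.051, 0.042, 0.020 and 0.00036. Hist3h2ba was -0.19 with edgeR and -0.13 with DESeq2, Hist3h2a was -0.11 with batch on 6 samples, and H2afz was -0.0088 with the block and length. With samples left out, Hist3h2a lay between -0.0066 and 0.80 and Hist1h4i between -0.41 and 0.25. For batch, Hist2h2be was 0.19 with edgeR, 0.15 without weights, 0.13 on all genes with a count and 0.029 with the length trend removed (-0.28 to 0.43 with samples left out), and H2afz was 0.0082 with the length trend removed. With samples left out, the batch estimate lay between -0.12 and 0.65 for Hist1h4i and between -0.30 and 0.047 for Hist3h2a.

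The log2 ratio of summed CPM lay between -0.41 and 0.06 for genotype and between 0.28 and 0.73 for batch over the alternatives, including the sums without Hist3h2ba or Hist4h4, which were added after seeing the data. The H2A genotype ratio was -0.06, and -1.43 without Hist3h2a. Without its highest gene, the batch ratio of H1 and of H2A could not be computed, because the rest were at 0 in a sample, and no H2A gene was left without overlapping genes. The mean number of histone genes with a count per sample was 31.7, and it was 15.0 at a minimum of 3 counts, 6.43 at 10 counts and 26.4 at the smallest library size.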
